A study of Mus musculus with 34 samples.

Results

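The 10 widespread neuropeptide genes Npy, Sst, Penk, Pdyn, Tac1, Tac2, Cck, Vip, Nts and Crh were followed through 34 fractions of the neonatal mouse brain. Each was matched on the array by its RefSeq accession, and each had 1 probe, out of 55681 probes that were not controls. All 34 fractions came from untreated male C57BL/6J mice at 3 days of age, with no transgene and no treatment, and plane and animal coincided. Mouse 1 was cut into 15 coronal fractions, mouse 2 into 8 horizontal fractions and mouse 3 into 11 sagittal fractions, each made of thin frozen slices pooled to a labelled width of 500 micron. Total RNA of a fraction was hybridised to 1 single-colour array, so that no fraction had a replicate and the p-values below measure the spread between neighbouring or mirrored fractions of 1 brain. The outermost sagittal fractions, 1 and 11, each pooled 2 cut fractions. Each plane was therefore analysed by itself. A value is the log2 processed signal of the probe less the 75th percentile of its array, and levels were compared only within a probe.

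Neuropeptides are made as larger precursors, cut by convertases in the secretory pathway, stored in dense core vesicles and released to act on G protein-coupled receptors. Several of them mark groups of inhibitory neurons: Sst, Npy and Vip label cortical interneurons, Penk labels indirect pathway striatal neurons, and Tac1 and Pdyn label direct pathway striatal neurons. The same genes are also used in the hypothalamus, the brain stem and other regions, and a coarse fraction holds several of these sites at once. In pooled tissue, fewer cells of a type and less RNA per cell cannot be told apart.

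RefSeq promoter windows (GRCm38.p6, from 250 bases before to 50 after a transcript start) were matched for 8 of the 10 genes, with 2 windows for Pdyn, and not for Penk and Crh. Somatostatin is the classical gene of the cyclic AMP response element, TGACGTCA, and its window is shown for that element. The windows of Tac1 and Pdyn are shown because theirs were the most alike of the members' profiles. Capitals mark its core TGACG on either strand, and in Sst a pair of overlapping cores on opposite strands makes up the full element.
Sst, chr16:23890795-23891094, minus strand: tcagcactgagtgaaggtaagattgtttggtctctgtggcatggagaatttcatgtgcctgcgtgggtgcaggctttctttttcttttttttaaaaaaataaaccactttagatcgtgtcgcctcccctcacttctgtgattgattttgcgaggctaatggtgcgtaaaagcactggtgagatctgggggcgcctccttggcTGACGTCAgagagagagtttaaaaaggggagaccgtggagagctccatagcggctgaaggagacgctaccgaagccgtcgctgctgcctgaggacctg
Tac1, chr6:7554811-7555110, plus strand: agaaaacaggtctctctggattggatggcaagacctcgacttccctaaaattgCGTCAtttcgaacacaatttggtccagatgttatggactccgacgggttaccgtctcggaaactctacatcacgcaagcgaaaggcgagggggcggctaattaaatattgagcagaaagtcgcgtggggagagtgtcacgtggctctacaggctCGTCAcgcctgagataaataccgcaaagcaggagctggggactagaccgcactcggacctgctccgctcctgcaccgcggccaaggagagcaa
Pdyn, chr2:129699889-129700188, minus strand: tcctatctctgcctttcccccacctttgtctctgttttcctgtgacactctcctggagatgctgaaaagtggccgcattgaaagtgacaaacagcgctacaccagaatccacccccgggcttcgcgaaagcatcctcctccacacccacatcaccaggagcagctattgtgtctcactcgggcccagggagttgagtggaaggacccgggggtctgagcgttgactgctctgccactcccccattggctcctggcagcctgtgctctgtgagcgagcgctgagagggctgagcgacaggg
The full element TGACGTCA was found in 1 of the 8 genes, Sst, where it began 48 bases before the transcript start, against 1.79% of all 32851 windows of this length. The core was found in 5 of the 8 genes (Sst, Tac1, Cck, Vip and Nts), against 20.8% of all windows. These matches describe letters only.

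Between 29598 and 37091 spots per array were well above background, and no member's spot was saturated or marked as an outlier. The Sst probe was spotted 10 times on each array, and the SD between its spots had a median of 0.06 on the log2 scale, with a highest value of 0.15. Npy, Sst, Penk, Tac1, Tac2, Cck, Nts and Crh were well above background in all 34 fractions, Vip in 32 and Pdyn in 22. All 10 passed the filter on detection in each plane. Regional markers gave the orientation that the labels did not state. In the coronal series the summed level of hindbrain markers was highest in fraction 2 (6.13, log2) and lowest in fraction 9 (-3.27). The sums of thalamic and hypothalamic markers were highest in fraction 8, that of striatal markers in fraction 11, of cortical projection neuron markers in fraction 13 and of olfactory bulb markers in fraction 15. In the horizontal series cortical projection markers were highest in fraction 2 and hypothalamic markers in fraction 8. In the sagittal series cortical projection markers were highest in fraction 1 and lowest in fraction 6. Of 7 pituitary markers, 2 passed the detection filter in each plane. Horizontal fraction 1 stood apart from fraction 2 in several genes, and the horizontal results are given with and without it.

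**Figure D1:**
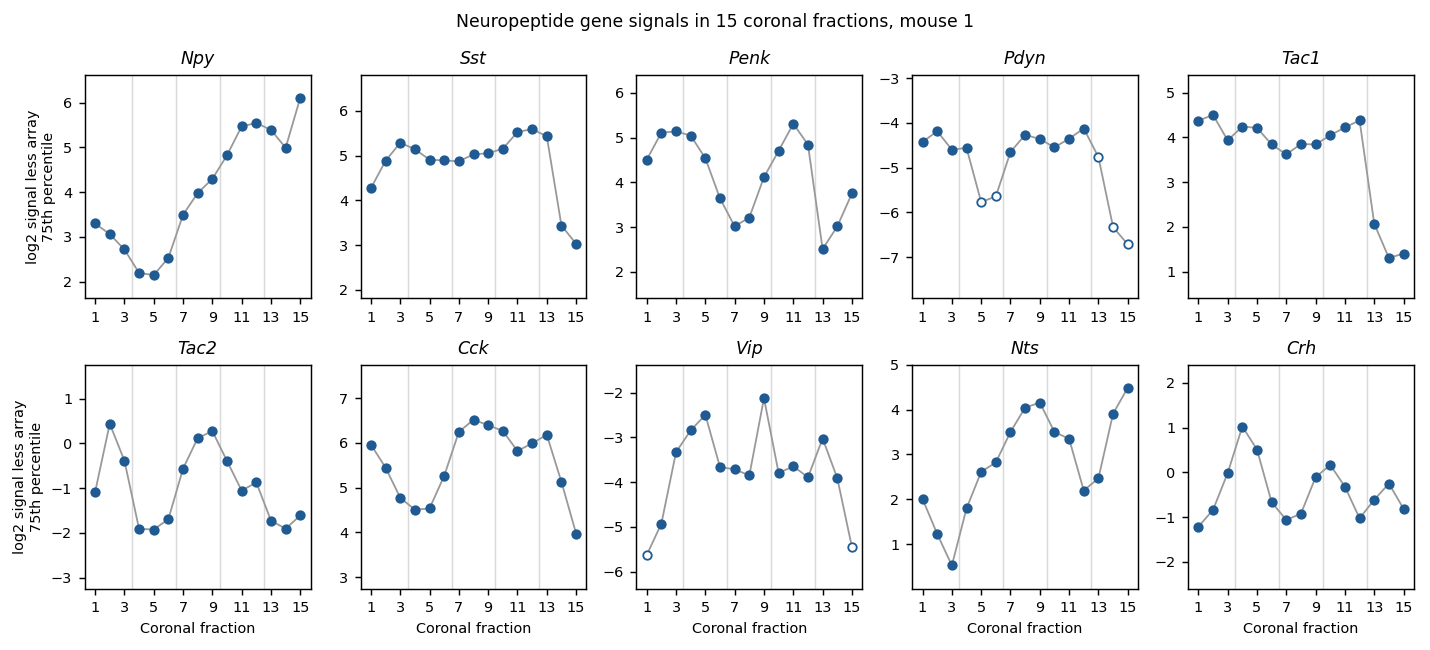
Log2 signal less the array's 75th percentile (y axis) of the 10 genes in coronal fractions 1 to 15 of mouse 1 (x axis), 1 array per point, with vertical lines at the block borders and open points not well above background. Npy climbed from 2.15 in fraction 5 to 6.11 in fraction 15, while Tac1 stayed between 3.62 and 4.50 up to fraction 12 and lay between 1.31 and 2.07 after it.

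Along the coronal axis the peptides did not share 1 profile. The 15 fractions were taken as 5 blocks of 3 neighbours, and a moderated F-test asked whether the blocks differed by more than the fractions within them. Npy, Tac1, Tac2, Penk, Nts and Pdyn passed, which was 6 of 10 members at an adjusted p under 0.05, where 40.7% of all 33788 probes tested passed. Cck (adjusted p = 0.0502), Sst (adjusted p = 0.15), Vip (adjusted p = 0.248) and Crh (adjusted p = 0.306) did not. Slide and position were tied, since fractions 1 to 8 were on 1 slide, 9 to 11 and 13 to 15 on another and 12 on yet another, and with the slide as a block 3 members passed (Tac1, Penk and Tac2). With a polynomial in place of blocks Penk (adjusted p = 0.343) and Tac2 (adjusted p = 0.318) did not pass, and Sst (adjusted p = 0.000302), Cck (adjusted p = 0.000742) and Vip (adjusted p = 0.00874) did. The comparison of fractions 10 to 15 with 1 to 6, used below, lost nearly all its calls with the slide as a block, from 8386 probes higher and 4671 lower to 1 and 16, and no member and no gene of the marker, receptor and processing lists was called in it then.

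Npy, which encodes neuropeptide Y, an appetite-stimulating peptide and a marker of cortical interneurons, had a lowest coronal level of 2.15, a median of 3.98 and a highest of 6.11. Its block means were 3.03 ± 0.29 (SD, n = 3) in fractions 1 to 3, 2.29 ± 0.21 in 4 to 6, 3.92 ± 0.40 in 7 to 9, 5.28 ± 0.40 in 10 to 12 and 5.50 ± 0.57 in 13 to 15. The 6 fractions from 10 to 15 (4.82 to 6.11) lay above the 6 from 1 to 6 (2.15 to 3.30) without overlap. The difference was 2.73 ± 0.21 (SE) on the log2 scale, 6.63-fold, with an adjusted p of 7.17e-06 in limma, and 24.8% of all probes were called higher on that side. With the slide as a block the difference was 2.10. The single step from fractions 7 to 9 to fractions 10 to 12 also passed for Npy (1.36 ± 0.30, adjusted p = 0.0472, with 1.6% of all probes called). Cortical projection neuron markers moved the same way, with 6 of 6 called higher in fractions 10 to 15. So did 7 of 9 striatal, 7 of 13 interneuron and 3 of 4 olfactory bulb markers tested. In horizontal fractions 5 to 8 less 1 to 4 the cortical projection markers had a median difference of -1.20, and Npy gave 0.73. The part of these cells in the Npy result was not tested.

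Nts, the precursor of neurotensin, was the other member called higher in fractions 10 to 15. Its lowest level was 0.52 in fraction 3, its median 2.82 and its highest 4.49 in fraction 15. There was a first maximum of 4.16 in fraction 9, a dip to 2.19 in fraction 12 and a second climb, and fraction 15 belongs to the olfactory bulb end by its markers. The groups overlapped (0.52 to 2.82 against 2.19 to 4.49), and the difference was 1.49 ± 0.38 (SE), 2.81-fold, adjusted p = 0.00824. It was 0.91 and did not pass without fractions 14 and 15, a comparison chosen after the values were seen, and it was 1.31 with the slide as a block.

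Tac1, the precursor of substance P and neurokinin A, went the other way. Its level was between 3.62 and 4.50 in fractions 1 to 12, then 2.07, 1.31 and 1.41 in fractions 13, 14 and 15. The median over the 15 fractions was 3.93. Fractions 10 to 15 were lower than 1 to 6 by 1.28 ± 0.15 (SE) on the log2 scale, adjusted p = 7.95e-05, where 13.8% of all probes were called lower, although the groups overlapped because fractions 10 to 12 were as high as the hind fractions. The step from fractions 10 to 12 to fractions 13 to 15 carried it (-2.62 ± 0.21, 6.16-fold lower, adjusted p = 0.000205), and that step was called for 3.28% of all probes. With the slide as a block the difference was -1.42 and was not called (adjusted p = 0.246). On the slide that held both, Tac1 was 4.22 in fraction 11 and 2.07 in fraction 13.

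Penk, the precursor of the enkephalins, had a pair of maxima. Its level was 5.14 in fraction 3, 3.02 in fraction 7, was 5.31 in fraction 11 and then 2.51 in fraction 13, with a median of 4.51. The blocks of fractions 1 to 3 (4.92 ± 0.36, SD, n = 3) and 10 to 12 (4.96 ± 0.32) stood above 7 to 9 (3.45 ± 0.59) and 13 to 15 (3.09 ± 0.62), with an adjusted p of 0.0081 for the blocks. Only the last of these steps passed by itself (-1.86 ± 0.41, adjusted p = 0.032), so the difference between fractions 10 to 15 and 1 to 6 of -0.64 ± 0.29 did not (adjusted p = 0.0965). Without coronal fraction 6 that difference was -0.83, without fraction 15 it was -0.81, and both then passed. The second maximum fell in fraction 11, where the striatal markers were summed highest. Of 9 striatal markers 7 were called higher in fractions 10 to 15, as were 24.8% of all probes. The part of these cells in the Penk profile was not tested.

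Pdyn, the precursor of the dynorphins, was well above background in 10 of 15 coronal fractions, with a highest level of -4.13 in fraction 12, a median of -4.56 and a lowest of -6.71 in fraction 15. It was not well above background in fractions 5 and 6 and in 13 to 15. The block means were -4.34 ± 0.21 (SD, n = 3) in fractions 10 to 12 and -5.93 ± 1.03 in 13 to 15, and, set against the lowest signal that was well above background on each array, the brighter block was at least 1.03-fold higher. The call (adjusted p = 0.0277) was lost when fraction 2, 8, 14 or 15 was left out (adjusted p between 0.0501 and 0.0813) and under normexp background correction (adjusted p = 0.159).

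Tac2, which in the mouse encodes neurokinin B, also had a pair of maxima, 0.44 in fraction 2 and 0.28 in fraction 9, around a minimum of -1.92 in fraction 5, with a median of -1.05. Fractions 4 to 6 (-1.84 ± 0.13, SD, n = 3) were lower than 1 to 3 (-0.34 ± 0.77) by 1.5 ± 0.33 (SE) on the log2 scale, adjusted p = 0.0283, a step called for 4.55% of all probes. The return from fractions 4 to 6 to fractions 7 to 9 was 1.78 ± 0.33, adjusted p = 0.0581, and Npy at the same step gave 1.63 ± 0.30, adjusted p = 0.0566. That step was called for 0.201% of all probes and for none of the 10 members, of which 6 had an unadjusted p under 0.05, as had 9.19% of all probes.

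Sst, the precursor of somatostatin, an inhibitory peptide of many interneurons, lay between 4.27 and 5.59 in fractions 1 to 13 and at 3.44 and 3.03 in fractions 14 and 15, with a median of 5.03. Without fraction 13, the last high one, the blocks differed (adjusted p = 0.00104), since the block of fractions 13 to 15 crosses that border. Cck, the precursor of cholecystokinin, was highest in fraction 8 (6.52), lowest in fraction 15 (3.97) and had a median of 5.82. Its blocks passed in 4 of the 15 settings that left out 1 fraction, without fractions 1, 3, 13 and 15 (adjusted p between 0.00749 and 0.048).

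Vip, the precursor of vasoactive intestinal peptide, and Crh, the precursor of corticotropin-releasing hormone, had their highest block means in fractions 4 to 6. The Crh mean there was 0.29 ± 0.87 (SD, n = 3), and the blocks of neither gene passed. Vip was highest in fraction 9 (-2.12), where its neighbours 8 and 10 were at -3.85 and -3.80, and it was high again in fraction 5 (-2.50) against a median of -3.71. Fractions 1 and 15 were not well above background. Crh was highest in fraction 4 (1.02), had a second maximum of 0.17 in fraction 10, a median of -0.61 and a lowest level of -1.22 in fraction 1. The Vip spot of fraction 9 was single, so its maximum has no replicate.

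**Figure D2:**
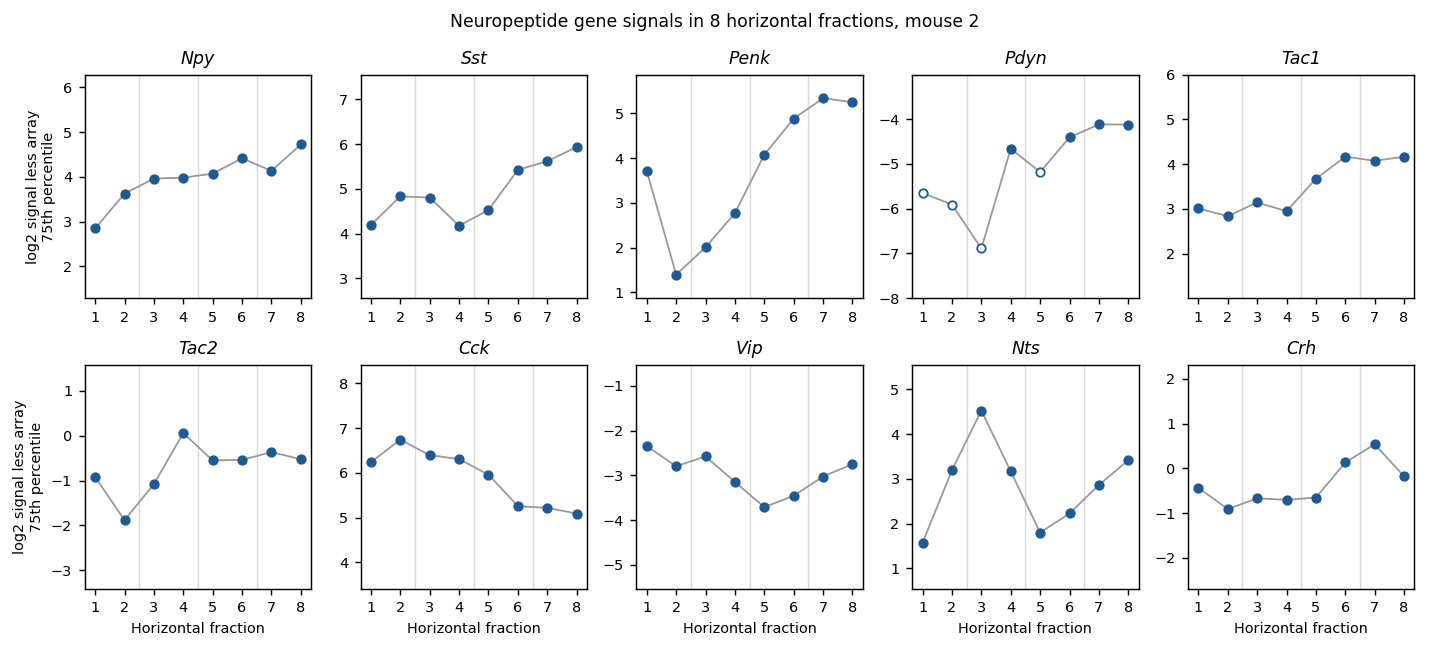
Log2 signal less the array's 75th percentile (y axis) of the 10 genes in horizontal fractions 1 to 8 of mouse 2 (x axis), 1 array per point, with vertical lines at the block borders and open points not well above background. Tac1 was between 2.84 and 3.15 in fractions 1 to 4 and between 3.68 and 4.17 in 5 to 8, and Cck ran from 6.74 in fraction 2 to 5.09 in fraction 8.

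Along the horizontal axis no member passed the F-test over 4 blocks of 2 neighbours (limma, 0 of 10, with 6 at an unadjusted p under 0.05), where 0.176% of all 33460 probes passed and 24.8% had an unadjusted p under 0.05. With normexp background correction or with limma-trend Tac1 and Cck passed, and with a polynomial in place of blocks Cck, Npy and Penk did. In the comparison of fractions 5 to 8 with fractions 1 to 4, 0.879% of all probes were called higher and 0.433% lower. Tac1 was the member called, and it was higher in fractions 5 to 8 by 1.04 ± 0.14 (SE) on the log2 scale, 2.05-fold, adjusted p = 0.0386. Its level was 3.01, 2.84, 3.15 and 2.95 in fractions 1, 2, 3 and 4. It was 3.68, 4.17, 4.08 and 4.17 in fractions 5, 6, 7 and 8. The groups did not overlap, but the call did not survive leaving out any 1 of the 8 fractions. The difference then stayed between 0.91 and 1.16 and was 1.08 without fraction 1. Without fraction 1, 2 or 3, and with no detection filter, no probe of the array was called in this comparison. A call lost in those settings therefore does not single out a gene.

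Cck and Penk gave differences of opposite sign that did not pass, although both were called with normexp background correction (adjusted p = 0.0179 and 0.0218) and with limma-trend (adjusted p = 0.0209 and 0.0301). Cck was 6.24, 6.74, 6.40 and 6.31 in fractions 1 to 4 and 5.96, 5.26, 5.22 and 5.09 in fractions 5 to 8, a difference of -1.04 ± 0.19 (SE), adjusted p = 0.0643. Cortical projection markers were also lower in fractions 5 to 8, with 2 of 6 called. Without fraction 1 these calls were lost, as were those of all probes. Penk was 3.72, 1.40, 2.01 and 2.77 in fractions 1 to 4 and 4.08, 4.88, 5.34 and 5.25 in fractions 5 to 8, a difference of 2.41 ± 0.52, adjusted p = 0.0808. Fraction 1 was the high one of its group. Without it the Penk difference was 2.99 and the Cck difference -1.17, neither called, as no probe of the array was. Fractions 3 and 4 alone made up a block and were on a slide of their own, so that block and slide cannot be told apart.

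The other members varied less clearly. Sst ran from 4.17 in fraction 4 to 5.93 in fraction 8, a difference between groups of 0.87 ± 0.27 (SE), adjusted p = 0.148. Npy was lowest in fraction 1 (2.85) and highest in fraction 8 (4.72), with a difference of 0.73 ± 0.22, adjusted p = 0.141. Nts was highest in fraction 3 (4.53) and lowest in fraction 1 (1.57), with a difference of -0.54 ± 0.45, adjusted p = 0.538. Crh had its highest level in fraction 7 (0.54), next to the horizontal fraction with the highest sum of hypothalamic markers, and its difference was 0.64 ± 0.24, adjusted p = 0.21. Pdyn was well above background in fractions 4, 6, 7 and 8, and fractions 7 and 8 were at least 1.9-fold higher than fractions 1 and 2, where it was not. Pdyn differed by 1.32 ± 0.48 (adjusted p = 0.191), Tac2 by 0.46 ± 0.31 (adjusted p = 0.441) and Vip by -0.52 ± 0.18 (adjusted p = 0.181). Without fraction 1 the differences were 0.71 for Sst, 0.54 for Npy, -0.94 for Nts, 0.76 for Crh, 1.39 for Pdyn, 0.70 for Tac2 and -0.41 for Vip. None was called, as no probe of the array was.

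**Figure D3:**
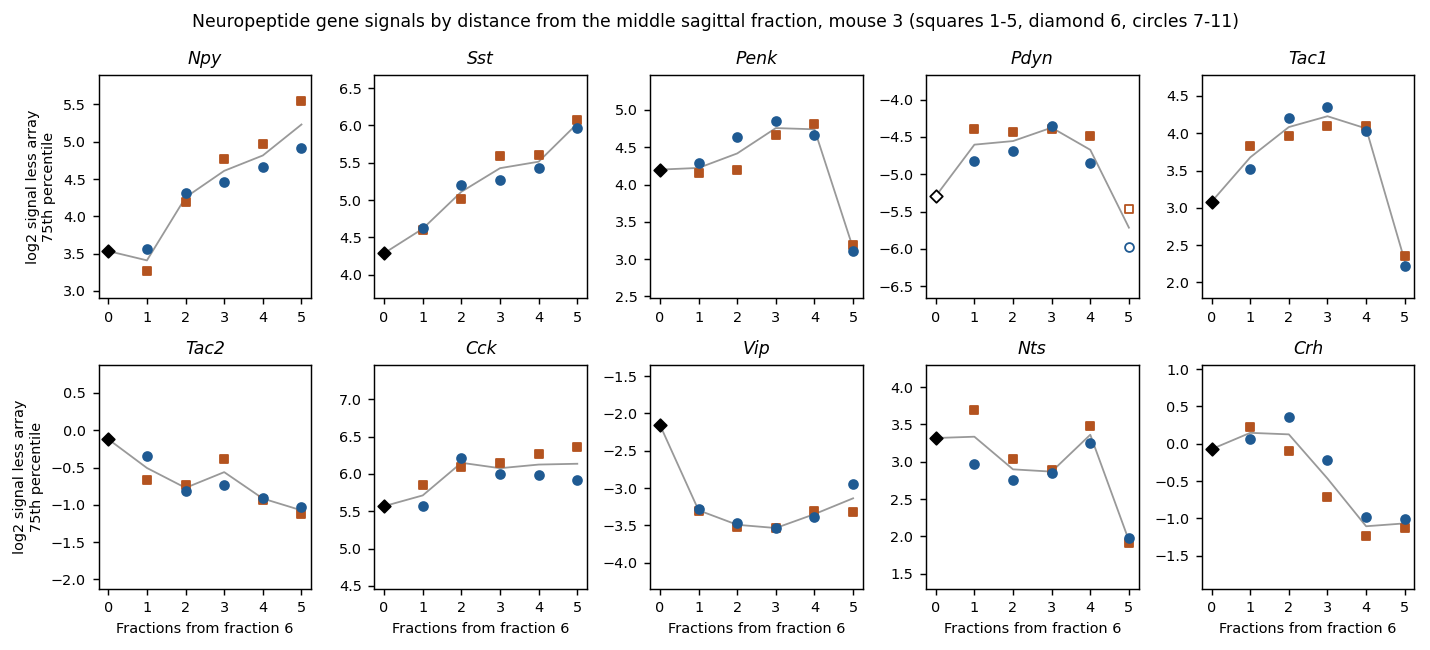
Log2 signal less the array's 75th percentile (y axis) of the 10 genes in the 11 sagittal fractions of mouse 3, by number of fractions from the middle fraction 6 (x axis), with squares for fractions 1 to 5, circles for 7 to 11, a diamond for 6, a line through the mean at each distance and open points not well above background. Npy and Sst climbed outwards, Crh fell outwards, and Penk, Tac1 and Nts were lowest in both outermost fractions.

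In the sagittal series fraction 6 was taken as the middle of 11, and fractions at the same distance on either side of it served as the measure of spread. They are single arrays of mirrored positions in 1 brain, not replicates. The F-test over 6 distances passed for 8 of 10 members, where 15.6% of all 34411 probes tested passed: Tac1 (adjusted p = 0.0057), Sst (0.0078), Penk (0.0102), Vip (0.0161), Npy (0.0205), Crh (0.0267), Nts (0.0376) and Pdyn (0.0421). Tac2 (adjusted p = 0.0624) and Cck (adjusted p = 0.231) did not. The count was 2 without fractions 1 and 11, 1 with the slide as a block and between 3 and 7 when 1 fraction was left out. Fractions 2 to 9 shared a slide, fraction 1 was on another and 10 and 11 were on yet another.

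The lateral fractions 1 to 3 and 9 to 11 were then compared with the medial fractions 4 to 8, where 15.3% of all probes were called higher laterally and 9.57% lower. Npy and Sst were higher and Crh and Tac2 lower. Sst was 6.08, 5.60 and 5.58 in fractions 1, 2 and 3 and 5.27, 5.43 and 5.97 in 9, 10 and 11. It was 5.02, 4.60, 4.29, 4.63 and 5.21 in fractions 4 to 8. The groups did not overlap, and the difference of 0.91 ± 0.08 (SE), 1.88-fold, had an adjusted p of 0.00133. Npy, at 4.46 to 5.54 laterally and 3.26 to 4.31 medially, differed by 1.11 ± 0.14, 2.16-fold, adjusted p = 0.00349, again without overlap. Both differences kept their direction and their call with the slide as a block and within the slide that held fractions 2 to 9.

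Crh had the largest medial excess among the members. Its level was 0.23 in fraction 5, -0.07 in 6 and 0.35 in 8, and it ran from -1.24 to -0.22 in the 6 lateral fractions, all of which lay below all 5 medial ones (-0.10 to 0.35). It was lower laterally by 0.97 ± 0.13 (SE), adjusted p = 0.00398. With the slide as a block the difference was -1.08, and within the slide of fractions 2 to 9 it was -0.95, and neither passed. All 10 hypothalamic markers were called lower laterally too, as were 4 of 4 olfactory bulb markers and 4 of 5 midbrain and monoamine markers tested. In the coronal series the hypothalamic markers were summed highest in fraction 8. Coronal Crh was highest in fraction 4 and had its lowest block mean in fractions 7 to 9 (-0.70 ± 0.52, SD, n = 3). The part of these cells in the Crh result was not tested. Tac2 was lower laterally by 0.32 ± 0.09, adjusted p = 0.0471, a call that was lost under array median or quantile normalization and in 9 of the 11 settings that left out 1 fraction. Its groups overlapped.

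In Penk, Tac1 and Nts the lowest levels were in the outermost fractions, and Pdyn was low there and in fraction 6. Tac1 was 2.36 and 2.22 in fractions 1 and 11, 4.09 and 4.03 in fractions 2 and 10, and 3.08 in fraction 6. Penk was 3.19 and 3.10 in fractions 1 and 11 against 4.81 and 4.67 in 2 and 10. Nts was 1.90 and 1.98 against 3.48 and 3.25. The outermost pair stood below every other fraction in Tac1, Penk and Nts, and fractions 10 and 11 were on the same slide. Their lateral less medial differences were -0.19 ± 0.09 (SE, adjusted p = 0.165), -0.08 ± 0.09 (adjusted p = 0.575) and -0.43 ± 0.14 (adjusted p = 0.0657), and without fractions 1 and 11 the Tac1 and Penk differences turned to 0.43 and 0.45 and the Nts difference went to -0.04, none of them called. Pdyn was not well above background in fractions 1, 6 and 11. Its pair 3 and 9 was at least 1.36-fold higher than 1 and 11 and at least 1.47-fold higher than 6.

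Vip and Tac2 had their highest levels in the single middle fraction. Vip was at -2.15 in fraction 6 against -3.54 to -2.95 in the other 10, and its call rested on that fraction, and without it the adjusted p was 0.203. Cck was flat, with a lowest level of 5.57 in fraction 6, a median of 6.00 and a highest of 6.36, and a lateral less medial difference of 0.25 ± 0.11 (SE), adjusted p = 0.144.

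No difference between the sides was called. In the comparison of fractions 7 to 11 with 1 to 5, blocked by mirror pair, 0% of all probes and 0 of 10 members had an adjusted p under 0.05 in limma, and 1 member, Pdyn, had an unadjusted p under 0.05 (-0.30 ± 0.09). The median size of the mirror difference ran from 0.05 in Vip to 0.36 in Pdyn. The largest single mirror difference was 0.72, in Nts between fractions 5 and 7. The labels do not name the left and right sides.

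**Figure D4:**
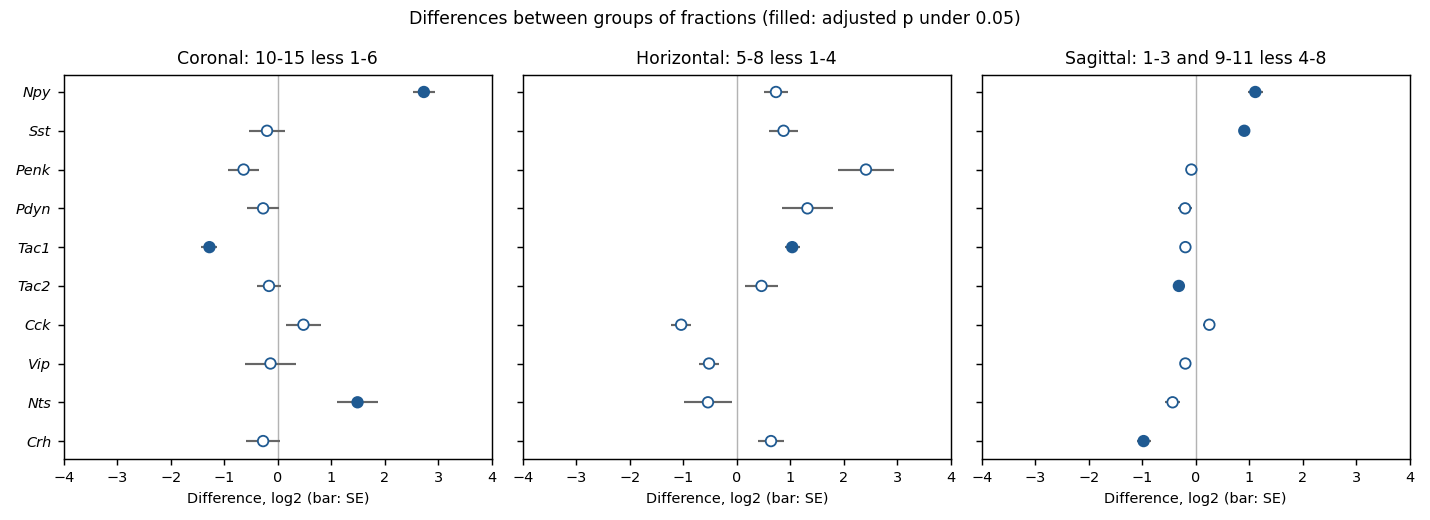
Difference on the log2 scale (x axis, points, with bars for the SE) of each gene (y axis) in the coronal, horizontal and sagittal comparisons of groups of fractions, with filled points for an adjusted p under 0.05. Npy lies right of 0 in all 3 panels, at 2.73, 0.73 and 1.11, and is filled in the coronal and sagittal ones.

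The members varied more than most probes. The median of their SDs over fractions was 0.87 in the coronal series, 0.61 in the horizontal and 0.57 in the sagittal, beside medians over all probes tested of 0.34, 0.26 and 0.22. All 10 lay above the median of all probes in each plane. In the coronal series Npy had a larger SD than 98.0% of probes, Nts than 96.8% and Tac1 than 96.0%, and in the horizontal series Penk than 99.1%. The smallest share was 59.3%, for Cck in the sagittal series.

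**Figure D5:**
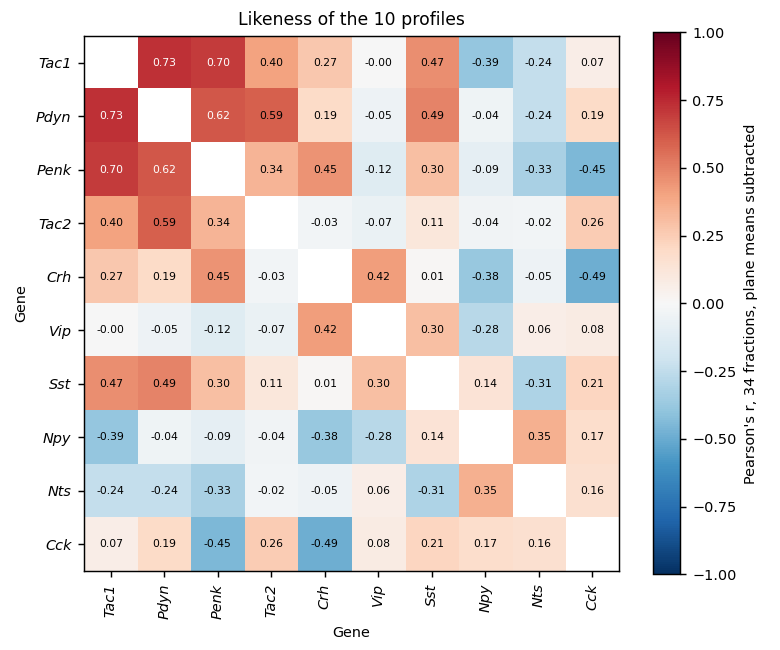
Pearson's r between the profiles of each pair of the 10 genes (both axes) over 34 fractions after each plane's mean was subtracted, with red for positive and blue for negative values. Tac1, Pdyn and Penk form the red corner, with r from 0.62 to 0.73.

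The likeness of profiles was described by Pearson's r over the 34 fractions after subtraction of each plane's mean. Neighbouring fractions share tissue and arrays share slides, so these values are a description. Over 45 pairs the median r was 0.08, and 12 pairs had the same sign in all 3 planes. The most alike were Pdyn and Tac1 (r = 0.73), with r of 0.74, 0.72 and 0.93 in the coronal, horizontal and sagittal planes, but Pdyn was not well above background in 12 of the 34 fractions, its lowest ones among them, and its r values rest partly on them. Next came Penk and Tac1 (0.70), Penk and Pdyn (0.62) and Pdyn and Tac2 (0.59). The least alike were Cck and Crh (-0.49) and Penk and Cck (-0.45). Some pairs differed between planes. Npy and Sst, both interneuron peptides, had the highest r of all pairs in the sagittal plane (0.96) and 0.74 in the horizontal, but -0.21 in the coronal. Sst and Pdyn (0.79, 0.53 and -0.34 in the coronal, horizontal and sagittal planes) and Sst and Tac1 (0.69, 0.83 and -0.31) were below 0 in the sagittal plane only.

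Among 20454 named probes tested in every plane, the 3 genes most like each member were read off by the same measure. Npy was nearest to Klf16, Rin1 and Kcnip2 (r from 0.91 to 0.93), and Sst to Sult4a1 (0.89), Rhof and Radil (both 0.83). Tac1 was nearest to Lypd1 (0.92), Has1 (0.88) and Mmel1 (0.87). Penk was nearest to Zfp503 (0.85), Crabp1 (0.83) and Chat (0.83), the enzyme that makes acetylcholine. Cck was nearest to Necab1 (0.87), Zbtb18 (0.84) and Dctd (0.84), and Pdyn to Ecel1 (0.83), Zdhhc14 (0.78) and Gpr149 (0.76). The nearest values were lower for Vip (Ifit1bl1, Marchf1 and Ss18l1, 0.75 to 0.77), Crh (Gpr137b, Nrip2 and Cntnap2, 0.75 to 0.76), Nts (Ubxn2b, Zfp810 and Zfp975, 0.73 to 0.75) and Tac2 (Cacna1s, Prox1 and Gbx2, 0.68 to 0.71). For Vip the likeness to Ifit1bl1 was not seen in the sagittal plane (r = -0.05).

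Receptors of these peptides were read from a list of 26 genes, all with a probe, of which 25 were tested in each plane. The list also holds Crhbp, a binding protein, and Oprl1, the receptor of a peptide outside the 10 members, and counts are of the whole list. In the coronal comparison, fitted without the slide, 4 were called higher and 9 lower in fractions 10 to 15. Of all probes, 24.8% were called higher and 13.8% lower. The median difference of the list was -0.33, beside 0.09 for all probes. Npy1r, a main receptor of neuropeptide Y, was higher (0.85, adjusted p = 0.00183), as Npy was, while Npy5r and Npy2r, further receptors of the same peptide, were lower (-1.14, adjusted p = 0.000498, and -1.21, adjusted p = 0.0317). Ntsr1, a neurotensin receptor, was higher (1.55, adjusted p = 0.00101) and Ntsr2 lower (-1.76, adjusted p = 0.000434). Tacr3, the neurokinin B receptor, gave -2.20 (adjusted p = 2.9e-05), the largest coronal difference of the list, and Tac2 itself gave -0.17 ± 0.23 (adjusted p = 0.604).

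In the sagittal comparison 7 genes of the list were called higher laterally and 8 lower, where 15.3% of all probes were higher and 9.57% lower. With the slide as a block 3 were called higher (Npy1r, Ntsr1 and Sstr1) and 1 lower (Cckar). Npy1r (0.70) and Sstr1 (0.48), a somatostatin receptor, were higher, in the direction of Npy and Sst, and Crhr1 (0.44, adjusted p = 0.0109), the main receptor of corticotropin-releasing hormone, was higher where Crh was lower. Oprk1, the receptor of dynorphins, was lower (-0.99, adjusted p = 0.00336). In the horizontal comparison Crhr2 (1.08, adjusted p = 0.0441) and Cckar were called higher in fractions 5 to 8 and none lower. Both calls were lost without fraction 1 and with no detection filter, settings in which no probe of the array was called in this comparison. Cckar, a cholecystokinin receptor, was not well above background in any of fractions 1 to 4, and fractions 5 to 8 were at least 2.51-fold higher (adjusted p = 0.04). Over 34 fractions the highest r values between peptide and receptor were 0.69 for Npy and Npy1r, 0.68 for Penk and Oprd1 and 0.62 for Pdyn and Oprk1. Next came 0.61 for Tac1 and Tacr1 and 0.61 for Sst and Sstr1. In the horizontal plane alone it was below 0 for Npy and Npy1r (-0.33) and for Sst and Sstr1 (-0.57). The lowest r values over all 34 fractions were -0.68 for Npy and Npy5r, -0.49 for Nts and Ntsr2 and -0.46 for Cck and Cckbr.

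Genes that process and store the peptides were called in 1 direction in each of the coronal and sagittal comparisons. Of 18 genes listed, all tested, 11 were called lower and none higher in coronal fractions 10 to 15. In the lateral sagittal fractions 8 were called lower and none higher. Of all probes, 13.8% were called lower in the coronal comparison and 9.57% in the sagittal one. The median differences of the list were -0.43 and -0.26, beside 0.09 and 0.03 for all probes. With the slide as a block none was called in the coronal comparison and Scg2, Vgf and Qpct were lower in the sagittal one. Scg2, which encodes secretogranin II of dense core vesicles, was lower in coronal fractions 10 to 15 (-1.08, adjusted p = 0.000411) and lower laterally (-0.74, adjusted p = 0.0038). It was higher in horizontal fractions 5 to 8 (1.24, adjusted p = 0.0391), where it was the single gene of the list called. The horizontal call was lost without fraction 1 and with no detection filter, as were those of all probes. Pcsk1, a prohormone convertase, was lower in the coronal and sagittal comparisons (-0.75, adjusted p = 0.00534, and -0.79, adjusted p = 0.00788). Pcsk2, the other main convertase, gave 0.15 (adjusted p = 0.613) and 0.21 (adjusted p = 0.235). Vgf, Chga and Chgb, granule proteins, were lower in both the coronal and the sagittal comparison.

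The interneuron and striatal lists did not follow the peptides as 1 group. Of 13 interneuron genes tested in the coronal series, 7 were called higher in fractions 10 to 15 and none lower. Of all probes, 24.8% were called higher and 13.8% lower. Among the 7 were Lhx6 (0.57, adjusted p = 0.00836) and Satb1 (0.90, adjusted p = 0.0023), transcription factors of interneurons that form in the medial ganglionic eminence. With the slide as a block none of the 13 was called. Gad1, the main enzyme of GABA synthesis, gave -0.26 (adjusted p = 0.162). In the sagittal series 2 of 13 were called higher laterally and 6 lower, where 15.3% of all probes were higher and 9.57% lower. The median difference of the list was -0.42, and with the slide as a block Satb1 was higher and Calb2 lower. Lhx6 was higher laterally (0.43, adjusted p = 0.0198), as Sst was, though not called with the slide as a block. Calb2 (-1.58, adjusted p = 0.00258) and Gad2 (-0.77, adjusted p = 0.00226) were lower. The lateral and medial means were 3.41 and 2.72 for Satb1. For Nkx2-1 (-2.88 and -1.80) and Sox6 (-2.41 and -2.05), of the same list, the lateral mean was the lower one. Of 9 striatal genes, 7 were called higher in coronal fractions 10 to 15 and 6 higher laterally, with none lower in either comparison. With the slide as a block none was called in the coronal comparison and 5 were higher laterally. Drd1, the dopamine receptor of direct pathway neurons, was higher in coronal fractions 10 to 15 (2.85, adjusted p = 0.000288). Tac1 was lower there through fractions 13 to 15 (mean 1.59), while its mean in 10 to 12 (4.22) was near that in 1 to 6 (4.18). Drd2, that of indirect pathway neurons, gave -0.06 (adjusted p = 0.724), beside -0.64 for Penk.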

How the data were processed

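Fractions of 3 brains were hybridised to 34 one-colour Agilent mouse arrays, per the labels with Cy3-labelled cRNA. The deposited intensity of each spot is Agilent's processed signal (Feature Extraction 10.10.1.1, background corrected). The deposited log2 table was the authors' version of the same values (after 1 shift per array, 99.9% of its values lay within 0.02 of the scanner's log2 signals) and served as an alternative. Spots of a probe were averaged, log2 was taken and each array's 75th percentile subtracted. A probe was tested where it was well above background in 3 coronal, 2 horizontal or 2 sagittal fractions. limma 3.58.1 (lmFit, eBayes, R 4.3.3) tested blocks of neighbouring or mirrored fractions, with Benjamini-Hochberg adjustment over all probes tested and a threshold of 0.05. Residual plus prior degrees of freedom were 12.3, 6.36 and 6.65 in the coronal, horizontal and sagittal fits, so precision is limited by the number of arrays. On simulated data, 57, 19 and 54 of 100 probes changed by 1 on the log2 scale and 88, 63 and 74 of 100 changed by 2 were recovered in the coronal, horizontal and sagittal fits, with 14, 2 and 10 false calls. The simulated noise was independent between fractions and held no slide effect, and the change filled whole blocks. These counts therefore do not cover slide effects or likeness of neighbouring fractions. The genes named were the 10 members, genes of 14 lists and the 3 genes most like each member. Members and lists were chosen with earlier results of these data known. Alternatives covered normalization, background correction, filter, slide, shape and each fraction left out.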

Additional observations from a re-analysis of the deposited data

Results flagged for a closer look

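In the sagittal series the difference of Vip between fractions 11 and 1 was 0.37 on the log2 scale, while the other 4 mirror differences lay between -0.08 and 0.05. Its gap to the nearest of them was 0.712 of the whole range, just past Dixon's critical value for 5 values. Of 20 sets of values searched in this way, 1 was marked, and chance marks about 1 in 20.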

How the results depend on the processing

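No paired analysis was possible because the fraction numbers that the planes share are positions in different brains, and the planes were never compared. The side test was blocked by mirrored positions within 1 brain, not by shared numbers. Members called in the coronal blocks numbered 6, and 3 with the slide as a block, 1 within slide 2 and 0 within slide 3. All probes called numbered 13761, and 22111 with a polynomial, 2500 with the slide as a block, 2322 within slide 2 and 73 within slide 3. In the horizontal blocks 0 members were called, and 2 under normexp, 2 under limma-trend and 3 with a polynomial. All probes called numbered 59, and 155 under median scaling, 1458 under normexp, 1076 under limma-trend and 705 with a polynomial. They numbered 0 with no filter, 0 within slide 1 and 0 without slide 5, and between 0 and 28 with 1 fraction left out. The slide as a block could not be estimated there, and without slide 5 the horizontal difference had no value. In the sagittal distances 8 members were called, and 5 with no filter, 4 with a line in distance, 3 without slide 5 and 2 without fractions 1 and 11. The count was 1 with the slide as a block and 1 within slide 4, and between 3 and 7 with 1 fraction left out. All probes called numbered 5367, and 9656 with a line in distance, 9107 under normexp, 8800 under limma-trend and 2401 with no filter. They numbered 1686 without slide 5, 870 without fractions 1 and 11, 308 within slide 4 and 232 with the slide as a block. With 1 fraction left out they numbered between 1537 and 4718. Of the side test, 1 probe was called under the stricter detection filter. The sagittal difference of Pdyn was -0.20 and not called, and turned to 0.25 under normexp, where it was called. The cause was not tested in any of these. The smaller designs have fewer fractions, and low signals limit Pdyn and Vip.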
